A study of Mustela putorius furo and Mus musculus with 4 samples.

Results

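The cytosolic ribosomal protein genes were compared between cultured ferret astrocytes and cultured mouse astrocytes. They were found by symbol, as RPL or RPS followed by a number and at most a short suffix, or as RPLP0, RPLP1, RPLP2 or RPSA, in upper case and in the values of both species. This gave 34 of the 13373 symbols shared by both species. The mouse values held 88 symbols of this form and the ferret values 36, so 54 mouse symbols had no ferret row of the same name and 2 ferret symbols had no mouse row. Of the 34 genes, 18 encode core proteins of the large subunit, 11 encode core proteins of the small subunit and 5 encode paralogs.

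Poly-A RNA was sequenced from 2 ferret and 2 mouse libraries. The ferret cells came from the cerebral cortices of pigmented sable ferrets at P1 and the mouse cells from wild-type ICR mice at P1 to P3. Cells of a ferret pup were spread over several flasks, while several mouse pups were pooled in a flask. After shaking and replating, both were kept in serum and then in a serum-free medium with heparin-binding EGF-like growth factor before RNA was taken. The libraries were made in duplicate, and it is not stated whether the duplicates came from separate cultures, so p-values measure the spread between these libraries, which may be technical. Levels are in FPKM, fragments counted per kilobase of a gene's exons and scaled to the size of the library, and were computed by the authors on the annotation of each species. Species and gene model therefore cannot be told apart here, and FPKM does not show how deeply a library was sequenced.

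The cultures are labelled as primary astrocytes. In the 2 libraries of each species, 10 astrocyte markers summed to 3576 and 3674 FPKM in the ferret and to 3258 and 3530 in the mouse. Markers in this list went in both directions. The astrocyte glutamate transporter gene SLC1A2 was at 0.133 and 0.178 FPKM in the ferret and at 47.1 and 51.8 in the mouse. S100B was at 247 and 244 FPKM in the ferret and at 57.3 and 63.1 in the mouse. Markers of other cells moved with species as well. The 9 microglial markers summed to 3.64 and 3.31 FPKM in the ferret against 639 and 616 in the mouse, and 10 meningeal fibroblast markers to 126 and 112 against 1561 and 1537. For 9 oligodendrocyte lineage markers the sums were 167 and 186 in the ferret against 68.5 and 68.9 in the mouse. For 6 endothelial markers they were 0.288 and 0.279 against 27.3 and 28.0, with CDH5 and TEK listed at 0 in both ferret libraries, and for 8 neuronal markers they were 28.3 and 28.2 against 32.3 and 33.5. These libraries hold RNA of whole cultures, in which fewer cells of a type and less RNA per cell cannot be told apart. The paper also counted cells by staining, in cultures kept in serum rather than in the medium used for the RNA. Nearly all cells were astrocytes in both species, with a few microglia, a larger share in the mouse, and a few neurons in the ferret. Among all genes tested 30.1% were called lower in the ferret and 13.1% higher, by the limits given below. Called lower were 6 of 10 astrocyte, 9 of 9 microglial, 8 of 9 fibroblast and 3 of 3 endothelial markers tested. Called higher in the ferret were 1 of 10 astrocyte, 3 of 8 oligodendrocyte lineage and 3 of 4 neuronal markers. Of 6 genes of cycling cells 1 was called lower, with sums of 122 and 125 FPKM in the ferret and 107 and 101 in the mouse. The part of these cells in the values of the ribosomal protein genes was not tested.

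A eukaryotic ribosome is built from a small subunit, which reads the mRNA, and a large subunit, which forms peptide bonds, and each holds ribosomal RNA and a set of proteins that are mostly present in a single copy. Ribosomal protein genes are used in all cells and give some of the most abundant mRNAs. Their mRNAs in vertebrates typically start with a 5′ terminal oligopyrimidine tract, or TOP, which begins with a cytosine and couples their translation to growth signals through mTOR and the RNA-binding protein LARP1. Most of the genes also have many processed pseudogenes, which makes it hard to assign their reads to a single locus.

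The starts of 5 mouse mRNAs are shown because they carry an annotated TOP and come from genes that were higher, lower or about equal between the species. Each is the first 20 bases of an annotated transcript in GENCODE M21 on GRCm38, written 5′ to 3′, with the cytosine and the pyrimidines that follow it in capitals. RPS2 starts on chromosome 17 at 24720110 on the plus strand, within a gene annotated from 24718116 to 24721929, and RPS18 on chromosome 17 at 33955663 on the minus strand, within 33951999 to 33956001. RPS3 starts on chromosome 7 at 99483651 on the minus strand, within 99477896 to 99483738, and RPL13A on chromosome 7 at 45128737 on the minus strand, within 45125558 to 45128761. RPL32 starts on chromosome 6 at 115808747 on the minus strand, within 115805505 to 115808747. All 5 stretches lie in the 5′ untranslated region. For RPS18, RPS3 and RPL13A the transcript shown is not the one with the best APPRIS and support level, whose start had no tract.
RPS2: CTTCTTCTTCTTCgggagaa
RPS18: CTCTTCCacaggaggcctac
RPS3: CCTTTCCTTTCagcggcgcg
RPL13A: CCTTTCCCaggcggctgccg
RPL32: CTTCCTTCTTCCTCggcgct

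A start with a cytosine and at least 4 further pyrimidines was searched on the strand of the gene at every annotated start of a protein-coding transcript. It was found at 1 or more starts in 9 of the 29 core genes shared by both species (31.0%), in 13 of the 47 mouse core genes without a shared symbol, RPS3A1 included (27.7%), and in 551 of 10114 tested genes with a mouse gene model (5.45%). Of 78 mitochondrial ribosomal protein genes, whose products build the separate ribosome of mitochondria, 5 had such a start (6.41%). None of the 5 paralogs had one at its annotated starts. With only the transcript of best APPRIS and support level per gene, the tract was found in fewer genes. These were 3 of the 29 shared core genes (10.3%) and 216 of the 10114 tested genes (2.14%). The annotation gives starts only as far as its transcripts reach, so a missing tract says only that these letters are not at these starts. The 9 core genes with the tract included 2 that were called higher in the ferret, 2 called lower and 5 not called. Of the 20 core genes without it, 6 were called higher, 3 lower and 11 not called. Among all genes tested 13.1% were called higher and 30.1% lower. The median difference in log2(FPKM + 1), ferret minus mouse, was -0.03 with the tract and 0.73 without it. The part of the tract in these differences was not tested.

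Ribosomal protein genes stood at the top of the ferret values. The highest symbol of all 14584 in the ferret was RPS29, which encodes a small zinc-binding protein of the small subunit, and RPS18, RPS2, RPL27A and RPLP0 ranked at positions 5, 7, 10 and 11. Among the 50 highest of the shared symbols, 20 were ribosomal protein genes in each ferret library, against 12 and 11 in the mouse libraries. Among the highest of the shared genes in the mouse were RPL13A at position 53 of all mouse symbols, RPS29 at 57, RPL19 at 79 and RPS9 at 88. Mouse positions are counted over 55139 symbols, which include genes with no ferret symbol.

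Of the FPKM summed over the shared symbols, the 34 genes held 8.37% and 8.73% in ferret and 4.46% and 4.40% in mouse astrocytes. The mean share was 8.55% ± 0.249 (SD, n = 2) in the ferret and 4.43% ± 0.0428 (SD, n = 2) in the mouse, and the libraries did not overlap. With 2 libraries against 2, an exact permutation test cannot give a two-sided p below 0.333, and none was run. The rule leaves out most of the mouse genes. When every symbol of this form was summed and set against all symbols of a library, the share was 8.52% ± 0.232 (SD, n = 2) in the ferret over 36 symbols and 6.37% ± 0.013 (SD, n = 2) in the mouse over 88 symbols.

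The shared core genes stood closer to each other in the mouse than in the ferret. Over the 29 shared core genes, mean FPKM in the mouse ran from 196 for RPL21 to 876 for RPL13A, a 4.47-fold range with a median of 419. In the ferret it ran from 65.9 for RPL34 to 2471 for RPS29, a 37.5-fold range with a median of 573. The standard deviation of log2 FPKM across these genes was 0.519 in the mouse and 1.28 in the ferret. The narrow mouse range holds for the shared symbols. The 75 core genes with a mouse row spanned 53.8 to 1198 FPKM, a 22.3-fold range with a standard deviation of 0.661. The core list holds 77 symbols, of which RPL13 had no row under that name in either species. Within a species the order of the 29 genes was nearly the same in both libraries, with Spearman's rho across genes of 0.997 for the ferret and 0.992 for the mouse. Between the species rho was 0.152 across the same 29 genes, against 0.821 across all 13373 shared symbols. Pearson's r on log2(FPKM + 1) was 0.335 and 0.821. A narrow range of levels lowers a correlation, and the 29 genes span only 4.47-fold in the mouse, while all shared symbols include values of 0. The lower rho therefore does not by itself set these genes apart. These correlations are across genes, which are not independent replicates, and all points of a species share its 2 libraries and its annotation.

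**Figure D1:**
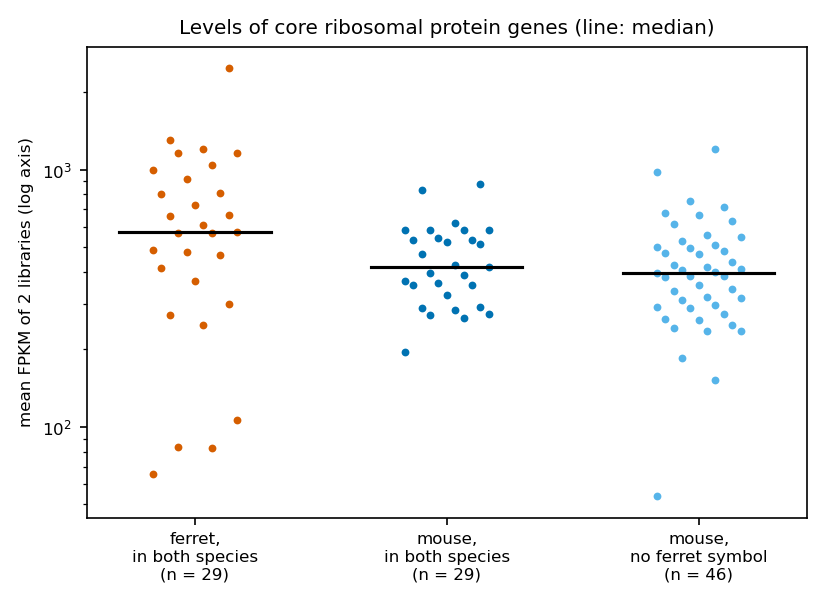
Mean FPKM of 2 libraries on a log axis for each core ribosomal protein gene, with ferret and mouse values of the 29 genes in both species and mouse values of the 46 core genes without a ferret symbol; lines are medians. The ferret values spread from 65.9 to 2471, while the mouse values of the same genes lie between 196 and 876.

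The spread in the ferret was not that of a few low genes alone. Its quartiles over the 29 core genes were 370.1 and 918 FPKM, against 326 and 540.1 in the mouse. The 4 lowest genes in the ferret, RPL34, RPS3, RPL23 and RPL21, lay between 65.9 and 107 FPKM, and the next, RPL28, stood at 249 FPKM. The mouse values of these 4 genes were 275, 398, 390.2 and 196 FPKM. RPL21 was the lowest of the 29 in the mouse as well, and RPL34 was among the 4 lowest there.

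Of the 34 genes, 32 reached a mean of 1 FPKM in a species and were tested, with the fit and the adjustment made over all 10204 genes that did so. A call needed a difference of more than 1 in log2(FPKM + 1), in either direction, with an adjusted p below 0.05 from limma after Benjamini-Hochberg correction. Of the 32 genes, 9 were higher in ferret astrocytes, 6 were lower and 17 were not called. Among all genes tested, 13.1% were called higher and 30.1% lower, so the 28.1% of ribosomal protein genes called higher stood above the first share and the 18.8% called lower below the second. With calls in both directions counted, 46.9% of the ribosomal protein genes and 43.2% of all genes were called. The adjusted p alone separates little here, since 28 of the 32 genes and 88.6% of all genes passed it.

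**Figure D2:**
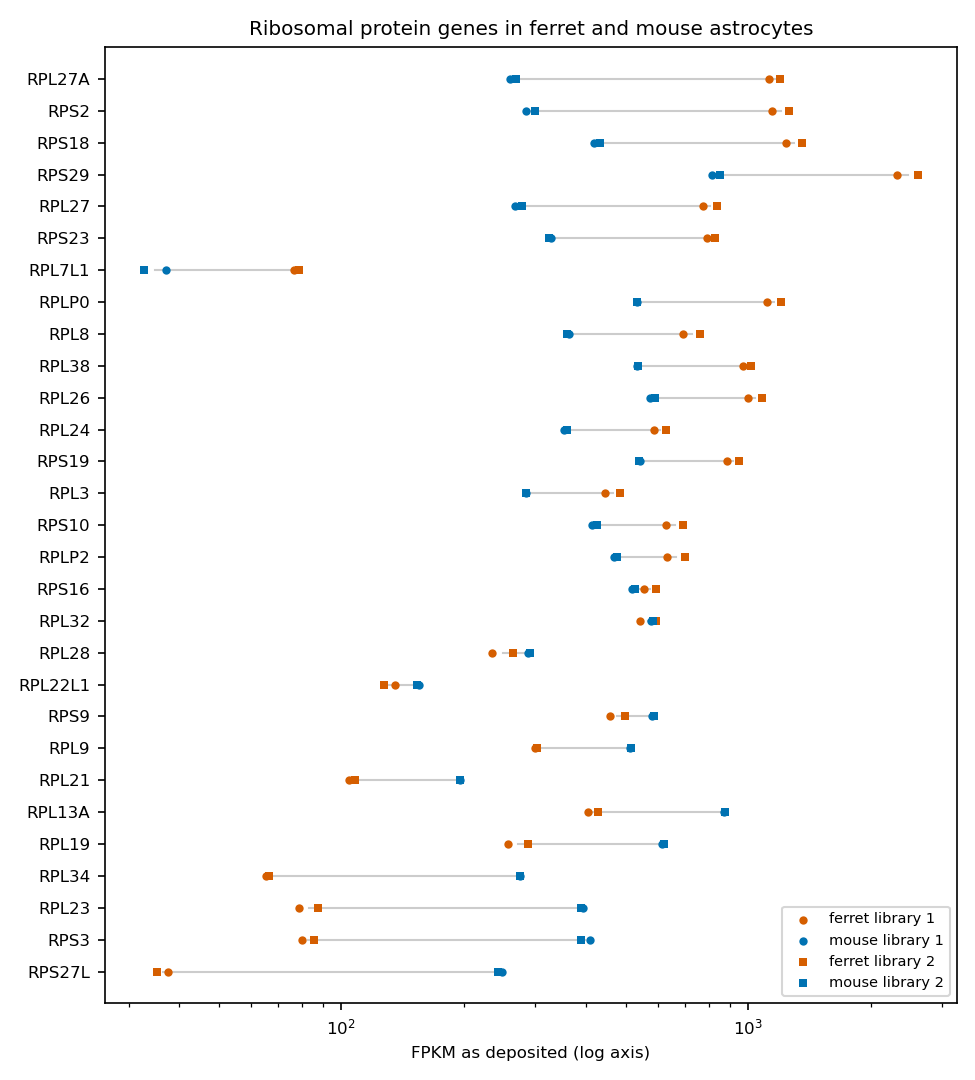
FPKM as deposited on a log axis for 29 of the 32 ribosomal protein genes tested, 1 point per library, with ferret libraries in orange and mouse libraries in blue; grey lines join the species means. Genes are ordered by their difference in log2(FPKM + 1), and the duplicates of a species lie close together while the gap between species changes sign down the plot.

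The split between the directions depended on the scaling between the species. The median difference of the 32 genes was 0.44 in log2(FPKM + 1), against -0.35 over all genes tested. With each library rescaled so that its shared symbols reach the same sum, the median of all genes moved to -0.01 and that of the ribosomal protein genes to 0.84, with 15 called higher and 4 lower, where 19.1% of all genes were called higher and 21.7% lower. After quantile normalization 13 were called higher and 4 lower, against 20.3% and 20.5% of all genes. Library 2 of the ferret stood above library 1 for 30 of the 32 genes, by at most 0.17 in log2, and library 2 of the mouse above library 1 for 23 of 32, by at most 0.18 in either direction. The libraries of the 2 species did not overlap for 30 of the 32 genes, where the share over all genes tested was 94.1%.

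The genes with the largest positive differences encode core proteins of both subunits. RPL27A, a large-subunit protein, was at 1123 and 1199 FPKM in ferret and 259.9 and 268 in mouse astrocytes. Both ferret libraries stood 4.40-fold above the mouse on average, with a difference of 2.13 in log2(FPKM + 1) (standard error, SE, 0.063, limma adjusted p = 8.42e-10). RPS2, a small-subunit protein near the entry of the mRNA channel, had 1143 and 1260.2 FPKM in the ferret and 284 and 299 in the mouse. Its difference was 2.04 (SE 0.070, adjusted p = 2.11e-09 by the same test), with no overlap between the species.

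RPS18, which lies in the head of the small subunit, had 1240.1 and 1357 FPKM in the ferret and 418 and 432 in the mouse. The difference was 1.61 (SE 0.068, limma adjusted p = 9.14e-09). RPS29 had 2325 and 2618 FPKM in the ferret and 813 and 850.3 in the mouse, a difference of 1.57 (SE 0.076, limma adjusted p = 2.55e-08). It was the highest shared gene in the ferret and the second in the mouse, and mouse RPS29 has the shortest transcript of the shared core genes, 390 bases with 3 exons. RPL27 had 773 and 836 FPKM in the ferret and 267 and 277 in the mouse, a difference of 1.56. RPS29 and RPL27 are among the genes mutated in Diamond-Blackfan anaemia, a failure of red cell production. Of 17 genes listed for that disease 5 are shared, of which these 2 were called higher and RPL26, RPS19 and RPS10 were not called. All 5 were called higher with the libraries rescaled to the same sum, and 3 after quantile normalization. Among all genes tested 13.1%, 19.1% and 20.3% were called higher in that order of scaling.

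The other 4 genes called higher had smaller differences. RPS23, a small-subunit protein at the decoding centre, had 793 and 828 FPKM in the ferret and 328 and 324 in the mouse. RPLP0, the base of the ribosomal stalk that recruits elongation factors, had 1112 and 1207 FPKM in the ferret and 532 and 534 in the mouse. RPL8, a core large-subunit protein, had 693 and 761 against 363 and 359. The differences of RPS23, RPLP0 and RPL8 were 1.31, 1.12 and 1.01. RPL8 lay at the limit of a call, and its difference was 0.94 without ferret library 2 and 0.999 without mouse library 2, which ended its call in both cases. The fourth, the paralog RPL7L1, is described with the paralogs.

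The genes with the largest negative differences lay farther from the median of the ribosomal protein genes than the highest ones. RPS3, a small-subunit protein at the mRNA entry channel that is also known from DNA repair, had 80.1 and 85.8 FPKM in the ferret and 408 and 388 in the mouse. The mouse mean was 4.80 times the ferret mean, and the difference was -2.25 (SE 0.062, limma adjusted p = 5.47e-10). RPL23, a large-subunit protein that can bind the p53 regulator MDM2, had 78.6 and 87.6 FPKM in the ferret and 393 and 388 in the mouse. Its difference was -2.22 (SE 0.066, adjusted p = 8.51e-10 by the same test).

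RPL34, another large-subunit protein, had 65.3 and 66.5 FPKM in the ferret and 275 in each mouse library, a difference of -2.04 (SE 0.055, limma adjusted p = 4.80e-10). RPL19 had 257 and 287 FPKM in the ferret and 614 and 622 in the mouse, a difference of -1.18. RPL13A, which is also known as part of a complex that silences inflammatory mRNAs, had 404 and 428 FPKM in the ferret and 874 and 877 in the mouse, a difference of -1.07. RPL13A was the highest shared gene in the mouse and ranked at position 22 of the 36 ferret genes of this form. RPL19 and RPL13A were no longer called when the libraries were rescaled to the same sum, with differences of -0.79 and -0.68.

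A further group of core genes differed by less than the limit. RPL38, RPL26, RPL24, RPS19, RPL3, RPS10 and RPLP2 were all higher in the ferret by 0.49 to 0.89 at an adjusted p of at most 7.04e-05 by limma, without passing the limit of 1. All of them but RPLP2 were called higher when the libraries were rescaled to the same sum, with RPL38 at 1.28 and RPS10 at 1.05. RPS19, the gene first tied to Diamond-Blackfan anaemia, had 886 and 951 FPKM in the ferret and 542 and 539 in the mouse. RPLP2, which forms the moving arms of the stalk with RPLP1, had 629.9 and 698 FPKM in the ferret and 467 and 475 in the mouse. RPL3, which sits near the peptidyl transferase centre, had 445 and 485 against 284 and 285. In the other direction, RPL21 had 105 and 108 FPKM in the ferret and 196 in each mouse library, a difference of -0.87, and RPL9 differed by -0.77.

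For RPS16 and RPL32 no difference was detected at an adjusted p under 0.05 by limma. RPS16 had 553 and 593 FPKM in the ferret and 517 and 527 in the mouse, a difference of 0.13 (SE 0.063, limma adjusted p = 0.069). RPL32 had 541 and 595 FPKM in the ferret and 578 and 583 in the mouse, so that its libraries overlapped between the species, with a difference of -0.03 (SE 0.067). RPS9, among the 5 highest shared genes in the mouse, had 457 and 497 FPKM in the ferret and 580.3 and 587 in the mouse. RPL28 at -0.22 and RPS9 at -0.29 were lower in the ferret by limma at an adjusted p of 0.013 and 0.0019. These small differences changed sign under other scalings, as RPL32, RPL28 and RPS9 stood at 0.36, 0.17 and 0.10 when the libraries were rescaled to the same sum.

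Most proteins of a ribosome are needed in equal numbers, so the genes were also compared with each other. Each library was centred on the median of its own 32 tested genes, which removes the scaling between the species, in the same limma fit. Against that median 5 genes were higher in the ferret, RPL27A, RPS2, RPS18, RPS29 and RPL27, and 8 were lower, namely RPS27L, RPS3, RPL23, RPL34, RPL19, RPL13A, RPL21 and RPL9. Among all genes tested 6.89% were called higher and 45.8% lower on this scale. RPL27A, the most positive core gene, stood at 1.61 (SE 0.073) and RPS3, the most negative, at -2.77 (SE 0.075). All 5 of the higher genes and 6 of the 8 lower ones were also called without centring. Centring moved the difference of every gene down by the same amount, RPL27A from 2.13 and RPS3 from -2.25. This overlap was therefore fixed in advance and is no separate support.

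**Figure D3:**
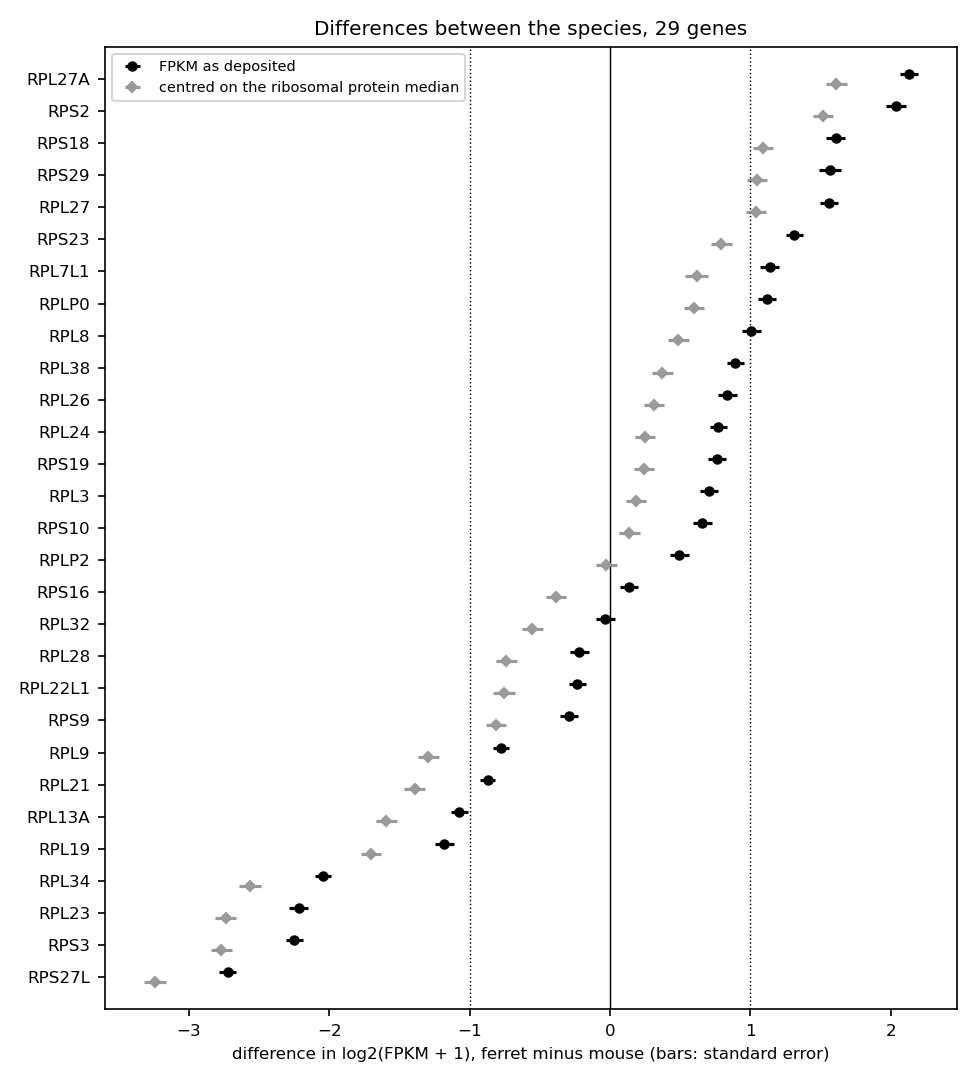
Differences in log2(FPKM + 1), ferret minus mouse, for 29 of the 32 genes tested, from FPKM as deposited (black) and after centring each library on the median of the 32 genes (grey); bars are standard errors and dotted lines mark 1 and -1. The standard errors, at most 0.076 in black, are small beside the span from 2.13 to -2.72.

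By subunit, 4 of 18 large-subunit genes were higher, 4 lower and 10 not called, with a median difference of 0.23. Of 11 small-subunit genes, 4 were higher, 1 lower and 6 not called, with a median of 0.66. RPS3 was the only small-subunit gene called lower, and RPS9 was the only other one below 0. Over all genes tested 13.1% were called higher and 30.1% lower, with a median of -0.35. With the libraries rescaled to the same sum, 8 large-subunit genes were higher and 2 lower, and 6 small-subunit genes were higher and 1 lower.

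Paralogs differed in both directions. RPS27L, a p53-inducible paralog of RPS27, had 37.4 and 35.3 FPKM in the ferret and 249 and 243 in the mouse. Its difference of -2.72 was the largest of the 32 genes in either direction (SE 0.059, limma adjusted p = 1.23e-10). In the mouse RPS27L stood at 38.7% and 35.4% of RPS27, whose symbol has no row in the ferret values used here. RPL7L1, a paralog of RPL7 that works in ribosome assembly, had 76.4 and 78.9 FPKM in the ferret and 37.0 and 32.7 in the mouse, a difference of 1.14 (SE 0.070, limma adjusted p = 1.44e-07). It was thus called in the opposite direction from RPS27L.

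RPL22L1, a paralog of RPL22, had 135 and 127 FPKM in the ferret and 156 and 153 in the mouse, a difference of -0.23 (SE 0.059, limma adjusted p = 0.0039) that turned to 0.16 when the libraries were rescaled to the same sum. In the mouse RPL22L1 stood at 48.8% and 48.7% of RPL22. RPL3L, a muscle form of RPL3, and RPL10L, a testis form of RPL10, were too low to be tested. RPL3L had 0.198 and 0.203 FPKM in the ferret and 0.317 and 0.357 in the mouse, which was at most 0.125% of RPL3 in the same library. RPL10L had 0.060 and 0.070 FPKM in the ferret and is listed at 0 in both mouse libraries.

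Near-identical copies were counted in the mouse, since reads of a gene and its copies can be exchanged. Of the 29 shared core genes, 26 had at least 1 other annotated gene whose transcript matched their coding sequence at 95% identity or more over at least 80% of its length, with 197 such matches in all and a median of 4. The 8 core genes called higher in the ferret had a median of 6.5 copies, the 5 called lower a median of 3 and the 16 not called a median of 3.5. The FPKM of the copies, summed, came to a median of 51.6% of the FPKM of the gene itself for those called higher, 12.6% for those called lower and 14.8% for those not called. In that order, the percentages ranged from 0 to 139, from 0 to 65.1 and from 0 to 175. The percentage is divided by the mouse FPKM of the gene, which also enters the call, so the groups are not independent of it. The median mouse FPKM of the groups was 343, 398 and 493. The most copies belonged to RPL21, not called and at -0.87, with 57 copies at 175% of its own mouse FPKM. For RPS2, 23 copies summed to 139%, and for RPL27A 11 copies to 68.2%. RPS3, called lower, and RPL8, called higher, had 0 copies by this limit, as did the paralog RPS27L. RPL34, called lower, had 5 copies at 65.1% of its FPKM. The ferret copies were not counted here, and the part of the copies in the differences was not tested.

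In the mouse values 310 rows are named as pseudogenes of ribosomal protein genes, of which 138 reached a mean of 1 FPKM, and the ferret values used here hold 0 rows named in that way. The highest was Rps2-ps13, with 238 and 248 FPKM beside 284 and 299 for RPS2 itself. When the mouse pseudogene rows were added to the genes they are named for, an alternative chosen after seeing the data, the difference of RPS2 fell from 2.04 to 0.91 and that of RPS23 from 1.31 to 0.80, which ended both calls. This step changes the mouse values alone, and only where such rows are above 0. The row named for RPS29 is listed at 0 and those named for RPL27A sum to 4.03 FPKM, so it could hardly move these genes. Copies without such a name were not added. The near-identical copies counted above, under any name, summed to 75.5 FPKM for RPS29 and 180 for RPL27A.

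The 46 core genes without a ferret symbol had a median level in the mouse close to that of the shared ones. Their mean FPKM ran from 53.8 for RPL29 to 1198 for RPLP1, with a median of 397, against 419 for the 29 shared core genes. The 6 highest were RPLP1, a stalk protein, at 1166 and 1231 FPKM, RPL41, which encodes the smallest ribosomal protein, at 964 and 993, RPS24 at 757 and 749.6, RPS15 at 699.9 and 732, RPS12 at 670.3 and 682 and RPS27 at 643 and 686. RPL29, the lowest, had 51.6 and 55.9 FPKM, and 27 near-identical copies summed to 409% of that. In the RefSeq annotation of a later ferret assembly, ASM1176430v1.1, 42 of the 46 core symbols are listed as gene symbols, as are all 34 shared genes. Of all mouse symbols with a mean of at least 1 FPKM, 66.5% had a ferret row, against 38.7% of the core ribosomal protein symbols.

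A pair of symbols came only from the ferret. RPS3A had 875 and 885 FPKM, and the mouse gene named Rps3a1 had 371 and 377. The names differ, so this pair was not among the genes tested. RPL26L1, a paralog of RPL26, had 12.7 and 12.1 FPKM, which was 1.27% and 1.12% of RPL26 in the same libraries. Beside Rps3a1, the mouse symbols outside the core list with no ferret row were Rps3a2 at 74.7 and 76.2 FPKM, Rpl6l at 27.4 in each library, Rps12l1 at 21.5 and 21.1, Rps3a3 at 13.4 and 13.1, Rpl32l at 7.72 and 7.13, Rps4l at 3.496 and 3.69 and Rpl39l at 0.142 and 0.148.

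Some ribosomal components have symbols that fall outside the rule. FAU, which encodes the small-subunit protein S30 fused to a ubiquitin-like protein, RACK1, a scaffold on the small subunit, and RPL36AL, a copy of RPL36A, had no ferret row under the same symbol in the values used here. In the mouse libraries FAU stood at 376 and 375 FPKM, RACK1 at 301 and 303 and RPL36AL at 142 and 149. In the mouse RPL36AL was at 49.4% and 50.1% of RPL36A.

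Other genes of protein synthesis were compared by list. Their counts and medians are to be read beside 13.1% higher, 30.1% lower and a median of -0.35 for all genes tested, or, with the libraries rescaled to the same sum, beside 19.1%, 21.7% and -0.01. The initiation factor genes EIF4B, EIF3E, EIF3F and EIF3H were placed in the list of TOP mRNAs below. Of 19 other initiation factor genes tested, 4 were called higher in the ferret and 0 lower (8 and 0 after rescaling). Their median was 0.53 (0.92 after rescaling). EIF3K, a subunit of the factor that holds the small subunit ready for mRNA, had 282 and 308 FPKM in the ferret and 89.6 and 91.5 in the mouse, a difference of 1.69, and EIF1AX had 177 and 182 against 55.3 and 57.7, a difference of 1.65. The lowest were EIF4G2 at -0.43 and EIF4A2 at -0.34, neither called. Of 11 elongation factors and other genes with known TOP mRNAs, 3 were higher and 3 lower, with a median of 0.09 (3 and 1 after rescaling, median 0.48). EEF1G, a subunit of the elongation factor 1 complex, had 671 and 731 FPKM in the ferret and 178 and 179 in the mouse, a difference of 1.97. EIF3F was higher as well, by 1.43. BTF3, a subunit of the complex that binds nascent chains, had 46.8 and 49.5 FPKM in the ferret and 210.4 and 216 in the mouse, a difference of -2.12, and EIF3E differed by -1.25. The standard deviation of the differences was 1.26 for this list, 1.27 for the ribosomal protein genes and 1.41 for all genes tested.

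**Figure D4:**
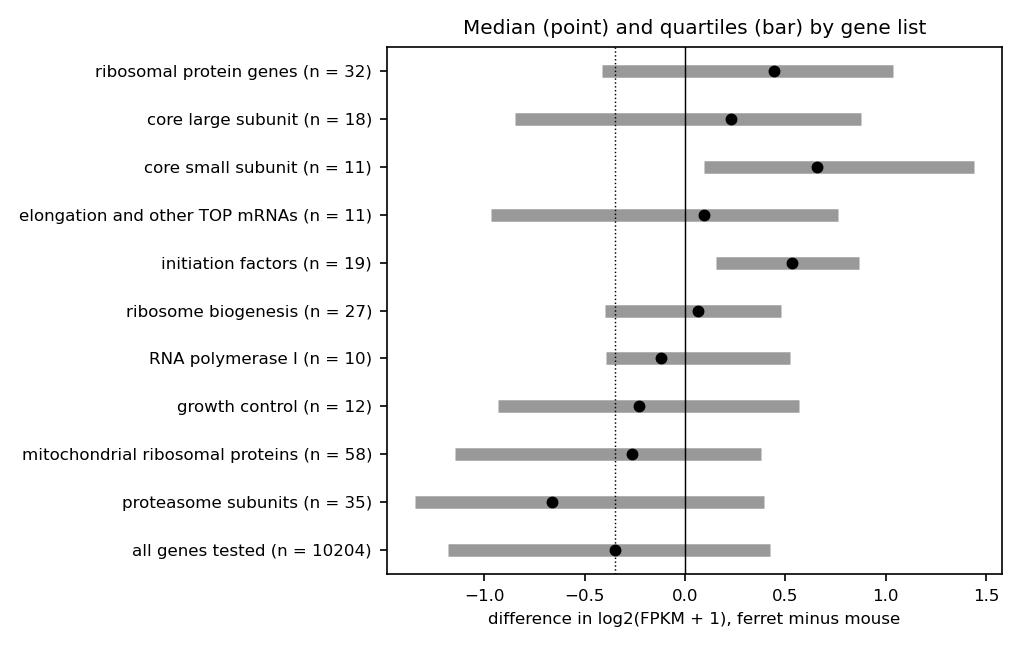
Median (point) and quartiles (bar) of the difference in log2(FPKM + 1), ferret minus mouse, for gene lists of protein synthesis and for all genes tested; the dotted line is the median of all genes, -0.35. The ribosomal protein genes have a median of 0.44 with quartiles at -0.41 and 1.03. The initiation factors, without those placed in the TOP list, have a median of 0.53.

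The genes that build ribosomes moved in both directions. Of 27 ribosome biogenesis genes, 2 were called higher and 5 lower, with a median of 0.06 (5 and 2 after rescaling, median 0.40). WDR12, which takes part in large-subunit processing, was at 26.1 and 27.1 FPKM in the ferret and 8.98 and 11.04 in the mouse, a difference of 1.33, and BYSL differed by 1.12. NOP58, a core protein of the particles that methylate ribosomal RNA, was at 12.9 and 13.9 against 58.0 and 55.2, a difference of -2.003, and GNL2 differed by -1.44. Of 10 genes of RNA polymerase I and its factors, 2 were higher, TAF1D at 1.16 and POLR1E at 1.12, and 1 was lower, UBTF at -1.12, while TAF1A at -0.58 was not called. After rescaling 3 were higher and 0 lower, and the median moved from -0.12 to 0.24. The summed FPKM of the biogenesis genes was 469 and 485 in the ferret and 487 and 489.8 in the mouse.

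Of 12 genes that couple translation to growth signals, 1 was called higher and 3 lower, with a median of -0.23 (3 and 2 after rescaling, median 0.13). EIF4EBP2, which holds back cap-dependent translation, differed by 1.07, at 37.7 and 39.0 FPKM in the ferret and 17.3 and 18.2 in the mouse. RHEB, the small GTPase that turns on mTOR, had 18.5 and 16.7 FPKM in the ferret and 75.6 and 75.4 in the mouse, a difference of -2.04. TSC2, which turns RHEB off, differed by -1.53, and its partner TSC1 by 0.77 without a call.

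Mitochondrial ribosomal protein genes and proteasome genes gave a comparison with other large complexes. Of 58 mitochondrial ribosomal protein genes, 3 were called higher and 17 lower, with a median of -0.27 and a standard deviation of differences of 1.04 (13 and 10 after rescaling, median 0.09). MRPL47 at 1.80 and MRPL18 at 1.63 were the highest, and MRPS6 at -3.11 and MRPL58 at -2.26 the lowest. Proteasome genes were chosen by symbol alone, as PSMA, PSMB, PSMC or PSMD followed by a number. Whether each product, PSMD5 included, is part of the finished proteasome was not checked. Of 35 such genes, 1 was higher and 14 were lower, with a median of -0.66 (4 and 9 after rescaling, median -0.28). PSMD5 stood highest at 5.997, followed by PSMB5 at 0.92 without a call, and the immunoproteasome subunits PSMB8 at -4.25 and PSMB9 at -2.01 were lowest. No test was made of one list against another.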

How the data were processed

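Reads were aligned by the authors with STAR v2.7.0f to Ensembl references (ferret MusPutFur1.0, mouse GRCm38, release 99), and FPKM per gene and library from Cufflinks v2.2.1 were deposited. Read counts were not used here, and FPKM alone gives neither depth nor counting error. Per-sample groups came from the sample titles. Symbols were matched in upper case, and where a symbol had several rows the one with the highest species mean was used, which applied to 0 of the ribosomal protein genes.

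The species were compared with limma 3.58.1 (R 4.3.3, empirical Bayes with a trend) on log2(FPKM + 1), a scale that understates the change of low genes. The 10204 genes tested reached a mean of 1 FPKM in a species. On simulated data for these 10204 genes, 99% of 200 genes changed by 1.5 in log2 were called, and 0 unchanged genes. The simulated noise was that between duplicates, and unchanged genes had no offset between the species. This checks the fit alone and gives no rate of false calls for these data. Adjusted p-values by Benjamini-Hochberg are over all genes tested. Mouse gene models were those of GENCODE M21 on GRCm38, a release other than that of the authors, and 82 of the 88 mouse symbols matched. For lengths, exons and copies the transcript of a gene with the best APPRIS and support level was used, while the tract was searched at all annotated starts. Copies were searched with BLAST+ 2.17.0.

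Named with values in every library, by rule, were the 5 highest genes of each species, the 6 largest and smallest differences, the paralogs, components outside the symbol rule, the 6 highest mouse genes without a ferret symbol, and from each other list the 2 largest differences in each direction, with marker lists given by sums and counts. Further members were named for their place in the order. Some genes enter the fits and counts but are not reported here by name. The members and lists were chosen with earlier results of these data known. Alternatives were other scalings, a pseudocount of 0.1, no filter, summed rows, no trend, the replicate number as a block and each library left out.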

Additional observations from a re-analysis of the deposited data

How the results depend on the processing

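Of the 377 recomputed differences of 29 of the 32 genes, 337 kept direction and call, 13 changed sign, 17 gained a call and 10 lost it. The cause was not tested. The 337 include settings that cannot move the difference itself, namely no filter, summed rows, no trend and the replicate block. Of the 29 genes, 12 changed sign or call with libraries rescaled to the same sum. With these genes left out of the sums it was 12 again, and after quantile normalization 9. With libraries rescaled to the same sum, 15 ribosomal protein genes were called higher and 4 lower (median 0.84), with these genes left out of the sums 15 and 4 (median 0.90), and after quantile normalization 13 and 4 (median 0.69); among all genes, those called higher rose from 1336 to 1954, 2092 and 2076 and those called lower fell from 3069 to 2215, 2114 and 2090. Differences that changed sign, in that order of scaling, were RPL22L1 (0.16, 0.22, 0.13), RPL28 (0.17, 0.24, 0.15), RPL32 (0.36, 0.42, 0.19) and RPS9 (0.10 and 0.16 under the first 2). With a library left out, RPL32 ranged from -0.10 to 0.036, highest without ferret replicate 1. With mouse pseudogene rows added, an alternative chosen after seeing the data, RPS16 stood at -1.4e-04, 7 genes were called higher and 7 lower, and the median was 0.33. Without the filter the median over 34 genes was 0.26, as RPL3L and RPL10L then entered. Leaving out a library gave 8 to 9 genes called higher, 6 lower and a median of 0.38 to 0.51, with the lowest without ferret replicate 2. For all genes it gave 1316 to 1372 higher and 3049 to 3095 lower. Relative to their own median, 5 genes were called higher, against 9 without centring. Of the summed FPKM over all symbols of a library, the 34 genes held 8.16% in the ferret and 2.54% in the mouse. The replicate block changed no call of these genes (9 higher, 6 lower, median 0.44) and gave 1342 and 3072 calls over all genes; replicate numbers correlated at 0.0099 across 10204 genes and do not pair the libraries. A pseudocount of 0.1, summed rows and no trend changed no call of these genes. The steps between the lowest values show only what 1 fragment was worth in one duplicate relative to the other, 0.85 in the ferret and 1.2 in the mouse for replicate 1 over 2, and not the depth.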
